A study of Mus musculus with 10 samples.

Results

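The carbonic anhydrase genes Car2, Car3, Car4, Car5b, Car6, Car8, Car9, Car12, Car13 and Car14 were followed in mammary tumors of lovastatin (Lov)-treated and vehicle (Vhcl)-treated mice. They are a named selection from the family, 8 further genes of which were on the array and are given after them. All 10 were measured, among 18193 genes with a probe set of their own. They were read by 21 probe sets annotated to 1 of these genes alone. For each gene the probe set with the highest mean signal over the 10 arrays was used as the main one, and the others are given beside it. All tumors arose spontaneously in female mice of strain FVB/N-Tg(MMTVneu), here Tg-neu, in which the MMTV promoter drives neu, and the ages of the mice are not given in the sources used here. Once a first tumor was palpable, each mouse was injected i.p. with 10 mg/kg Lov, an inhibitor of HMG-CoA reductase, or with ethanol as Vhcl, 3 times a week for 6 weeks. One array was hybridized per tumor, 5 in the Lov group (A19, A48, A50, A55 and AB10) and 5 in the Vhcl group (A45, A49, A54, A59 and AB11). One free-text label calls the control tumors untreated, whereas their treatment label and the methods name the vehicle. No label says which mouse a tumor came from, so p-values measure the spread between these tumors.

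Carbonic anhydrases convert carbon dioxide and water to bicarbonate and a proton, and back. The isoforms differ in their place in the cell. Car2, Car3 and Car13 are cytosolic, Car5b is mitochondrial and Car6 is secreted into saliva and milk. Car4 is anchored by a lipid to the outer face of the cell membrane. Car9, Car12 and Car14 span that membrane with their active site outside the cell. Car8 lacks catalytic activity. Car9 is a classical target of hypoxia-inducible factor (HIF), the transcription factor stabilized at low oxygen, and Car12 is induced by hypoxia in many tumor cell lines. Both are known for acidifying the surroundings of hypoxic tumor cells while keeping the cell interior alkaline.

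Promoter sequences (250 bases before to 50 after the transcription start, RefSeq, GRCm38.p6) were found for 6 of the 10 genes, namely Car4, Car5b, Car6, Car9, Car12 and Car14. They were searched on both strands for ACGTG and GCGTG, the core letters of the HIF binding motif. ACGTG was present in 4 of the 6 (Car4, Car6, Car9 and Car14), against 19.6% of 32851 mouse promoters of the same length, and either motif was present in 5 of the 6, against 43.8%. The promoters of both isoforms known as hypoxia-induced are shown because one holds the motif and the other does not. Capitals mark the motif, which appears as CACGT where it lies on the other strand. A match is a description of the letters and not of binding.
Car9, chr4:43506776-43507075, plus strand: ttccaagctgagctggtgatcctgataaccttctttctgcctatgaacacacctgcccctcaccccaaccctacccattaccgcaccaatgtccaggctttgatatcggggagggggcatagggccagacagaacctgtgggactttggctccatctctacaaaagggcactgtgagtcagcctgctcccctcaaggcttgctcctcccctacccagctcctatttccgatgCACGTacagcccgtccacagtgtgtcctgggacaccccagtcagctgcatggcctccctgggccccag
Car12, chr9:66713436-66713735, plus strand: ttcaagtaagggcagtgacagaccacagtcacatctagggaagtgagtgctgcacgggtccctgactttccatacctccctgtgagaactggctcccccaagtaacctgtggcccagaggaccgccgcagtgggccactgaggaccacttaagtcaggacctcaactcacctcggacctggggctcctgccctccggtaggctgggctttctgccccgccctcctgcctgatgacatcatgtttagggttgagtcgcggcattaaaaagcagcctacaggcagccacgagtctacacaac
In Car9 the first base of the motif lay 18 bases before the start, on the minus strand. In the Car12 promoter neither motif was found in this window.

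The same 5 letters stood close to the start of 2 further membrane-bound isoforms, of which the 25 bases around the motif are shown for comparison with Car9. The motif began 7 bases before the start of Car14 and 3 bases after that of Car4, in both cases on the strand opposite to the gene.
Car9, chr4:43506998-43507022: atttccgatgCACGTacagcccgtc
Car14, chr3:95904678-95904702: cccccctcctCACGTacaccggttt
Car4, chr11:84957746-84957770: agccgactccCACGTctagccgtcc
In Car6 the palindrome CACGTG, which holds the motif on both strands, began 149 bases before the start. Car5b held GCGTG at 5 places and ACGTG at none.

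Of the 10 genes, Car12 and Car13 had lower signals in Lov-treated than in Vhcl-treated tumors at an unadjusted p under 0.05 (limma's moderated test, 2-sided), and 0 had higher ones. On the main probe sets of all 18193 genes, 2.75% were lower and 3.5% were higher by the same criterion. After Benjamini-Hochberg adjustment over all 45037 probe sets the lowest adjusted p of the 10 genes was 0.928, and the lowest on the whole array was 0.369. The log2 difference, Lov minus Vhcl, was negative for Car13, Car3, Car9 and Car12 and positive for the other 6, with a median of 0.04 over the 10 genes and 0.002 over all genes. Both hypoxia-induced isoforms had negative differences (median -0.44), as had 2 of the 8 other isoforms (median 0.05). The gap between these medians was -0.49 with all tumors, -0.33 without Vhcl A59 and -0.23 without Lov A55, Vhcl A54 and Vhcl A59, the tumors with the most skeletal muscle signal. The groups overlapped for each of the 10 genes, whereas they did not overlap for 0.693% of all genes. Each array held the RNA of a whole tumor, in which fewer cells of a type and less RNA per cell cannot be told apart.

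**Figure D1:**
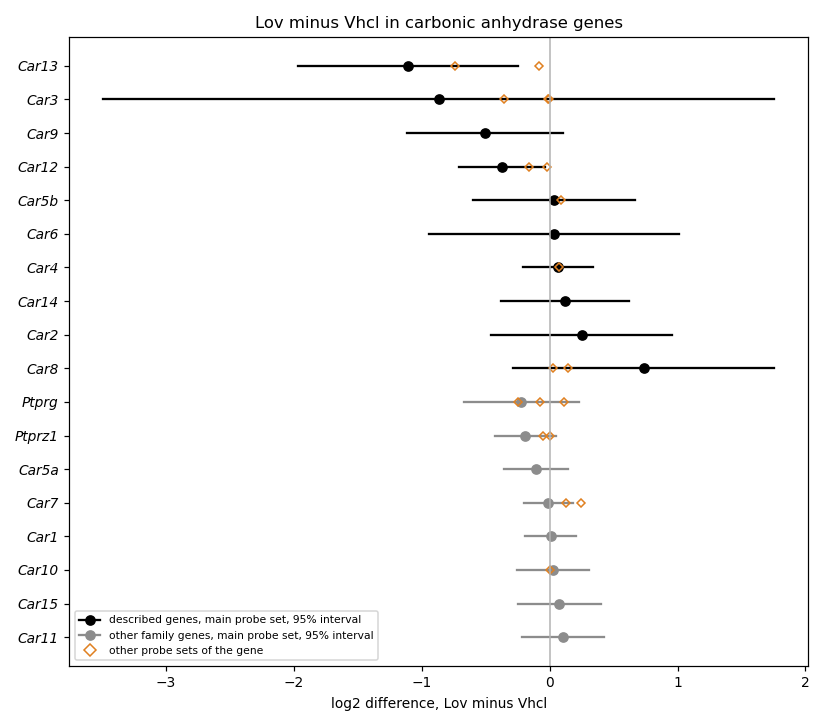
Log2 difference (Lov minus Vhcl, x axis) of 18 carbonic anhydrase genes (y axis). Filled circles are main probe sets with the 95% interval of limma's fit, black for the 10 genes described and gray for the 8 others, and open diamonds are further probe sets of the same gene. The intervals of Car12 and Car13 lie below 0 and all others include 0.

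Car9 encodes the transmembrane isoform that is barely present in most normal tissues. Its signals (1427013_at) were 8.68, 7.52, 8.05, 7.82 and 7.44 in Lov A19, A48, A50, A55 and AB10, against 7.53, 8.32, 8.78, 8.85 and 8.56 in Vhcl A45, A49, A54, A59 and AB11. All but 1 of the 5 Lov-treated tumors lay below every Vhcl-treated tumor except A45, and the remaining one, Lov A19, lay among the high ones. The mean was 7.90 ± 0.50 with Lov and 8.41 ± 0.53 with Vhcl (SD, n = 5 each), a log2 difference of -0.51 ± 0.28 (SE, 95% interval -1.12 to 0.11). The difference did not pass the test (limma p = 0.0965, adjusted p = 0.971, exact permutation p = 0.159). Without Lov A19 the log2 difference was -0.70, with an unadjusted limma p of 0.0190 (adjusted p = 0.677). Without Vhcl A45 it was -0.73, with an unadjusted limma p of 0.0107 (adjusted p = 0.922). Leaving out any other single tumor gave -0.54 to -0.39, with unadjusted limma p-values of 0.109 to 0.212. The log2 difference was -0.21 without Lov A55, Vhcl A54 and Vhcl A59, the tumors with the most skeletal muscle signal. It was -0.31 without Vhcl A59 and AB11, the tumors with the most salivary gland signal.

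Car12, the second extracellular isoform of this pair, is also found in normal epithelia. Its signals (1428485_at) were 9.38, 9.60, 9.31, 9.03 and 8.79 in Lov A19, A48, A50, A55 and AB10, against 9.68, 9.29, 9.76, 9.54 and 9.70 in Vhcl A45, A49, A54, A59 and AB11. All 5 Lov-treated tumors lay below the Vhcl median of 9.68, and 2 of them below the lowest Vhcl-treated tumor. Car12 averaged 9.22 ± 0.32 with Lov and 9.59 ± 0.19 with Vhcl (SD, n = 5 each), a log2 difference of -0.37 ± 0.15 (SE, 95% interval -0.71 to -0.04), or 1.29-fold lower (limma p = 0.0328, adjusted p = 0.932, exact permutation p = 0.0635). The limma p exceeded 0.05 when Lov A55, Lov AB10, Vhcl A45, Vhcl A54 or Vhcl AB11 was left out (0.0625 to 0.0808), and it was 0.192 without the 3 tumors with the most skeletal muscle signal. Of the other Car12 probe sets, 1447762_x_at ran from 4.17 to 4.69 with Lov and from 4.55 to 4.76 with Vhcl (log2 difference -0.16) and 1446517_at differed by -0.02.

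The difference between the isoforms of this pair was tested within each tumor. Car9 minus Car12 was -0.70, -2.08, -1.26, -1.21 and -1.35 in Lov A19, A48, A50, A55 and AB10, against -2.15, -0.97, -0.98, -0.69 and -1.14 in Vhcl A45, A49, A54, A59 and AB11. The within-tumor values of the groups overlapped and their means differed by -0.13 (exact permutation p = 0.635, 0.849 after adjustment over 3 such contrasts), so that Car9 and Car12 were not shown to differ in their response.

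Genes known as HIF targets were examined as the nearest pathway. Of 16 such genes besides Car9 and Car12, 8 were lower with Lov at an unadjusted p under 0.05 and 0 were higher. Over all genes, 2.75% were lower and 3.5% higher by this criterion. Of the 16, 15 had negative differences (median log2 difference -0.52, against 0.002 for all genes). Ndrg1, a stress-induced gene, had signals of 9.09, 8.22, 7.72, 7.64 and 6.55 in Lov A19, A48, A50, A55 and AB10, against 8.94, 10.33, 9.70, 10.18 and 9.28 in Vhcl A45, A49, A54, A59 and AB11 (log2 difference -1.84 ± 0.41, SE, exact permutation p = 0.0159). Bnip3, a mitophagy receptor, was 2.26-fold lower, Pgk1 (phosphoglycerate kinase) 1.53-fold lower and Ldha (lactate dehydrogenase A) 1.52-fold lower. The adjusted limma p was 0.879 for Ndrg1 and 0.919 for each of Bnip3, Pgk1 and Ldha. The average of the 16 genes was 9.22, 8.55, 8.29, 8.23 and 8.0 in the Lov-treated tumors in the same order, against 8.94, 9.02, 9.04, 9.43 and 8.84 in the Vhcl-treated tumors. Lov A19 had the highest value of the Lov-treated tumors both for this average and for Car9, whereas Vhcl A45, the lowest Vhcl-treated tumor for Car9, was near the others for the average. Among 10 regulators of HIF, Egln1 (the prolyl hydroxylase that marks HIF for decay, itself induced by HIF) was lower at 8.72, 8.11, 8.08, 7.96 and 7.54 with Lov, against 9.05, 8.18, 8.73, 8.92 and 8.63 with Vhcl (exact permutation p = 0.0317). Hif1a differed by -0.34 (exact permutation p = 0.167) and Vhl by -0.26 (exact permutation p = 0.111).

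**Figure D2:**
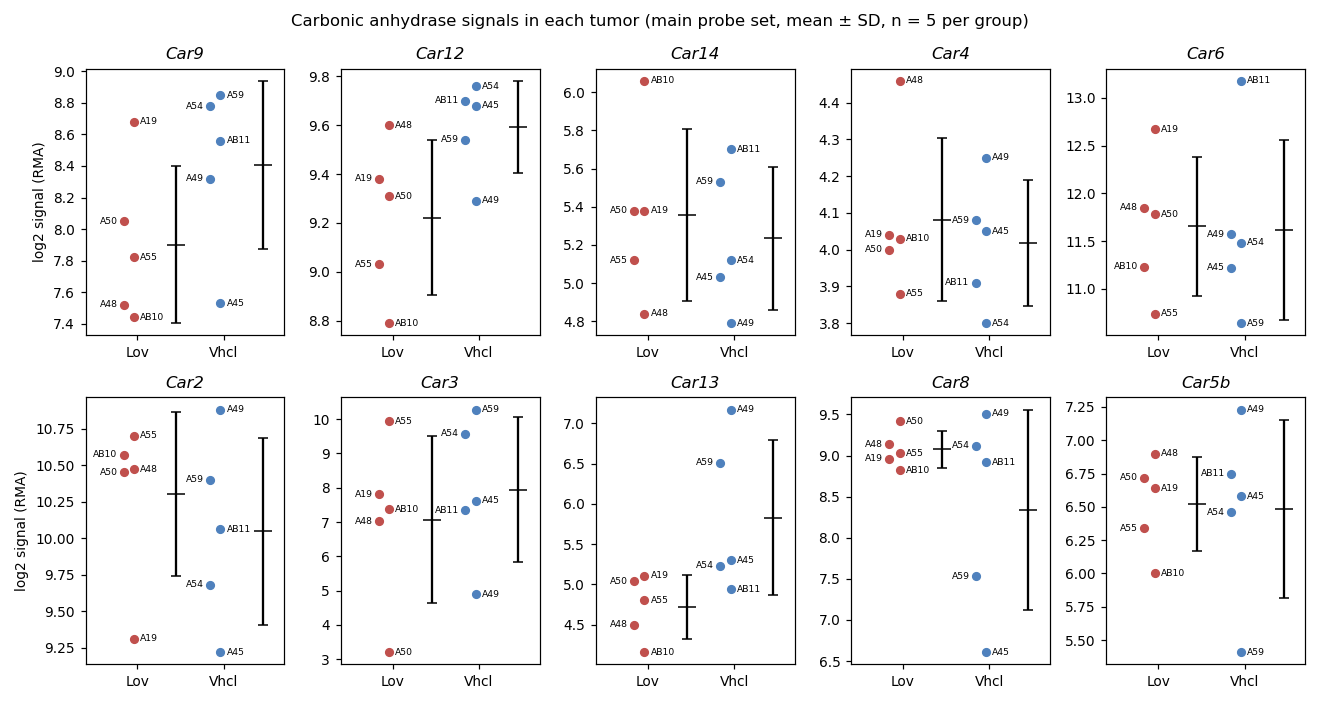
Log2 signal (y axis, a separate scale for each gene) of the main probe set of the 10 genes in each Lov-treated (left) and Vhcl-treated (right) tumor, with tumor names. The crossbar and whiskers beside the points give the mean ± SD of 5 tumors. The groups overlap for all 10 genes, Car12 lies lower in Lov-treated tumors, and Car13 and Car8 spread more widely in Vhcl-treated tumors.

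Car14 and Car4, membrane-bound isoforms that are not classed as hypoxia-induced, gave intervals that included 0. Car14 (1450725_s_at) gave 5.38, 4.84, 5.38, 5.12 and 6.06 in the Lov-treated tumors, against 5.03, 4.79, 5.12, 5.53 and 5.70 in the Vhcl-treated tumors. Its log2 difference was 0.12 ± 0.23 (SE, 95% interval -0.38 to 0.62). Car4, known from capillary walls and kidney tubules, read 4.04, 4.46, 4.00, 3.88 and 4.03 with Lov, against 4.05, 4.25, 3.80, 4.08 and 3.91 with Vhcl (1418094_s_at, log2 difference 0.06, 95% interval -0.21 to 0.34). For scale, 3 Y-linked transcripts read between 2.62 and 3.56 in these tumors of female mice. The second Car4 probe set lay between 2.94 and 3.14 with Lov and between 2.91 and 3.25 with Vhcl, within that range. Of 9 endothelial markers, 0 differed at an unadjusted p under 0.05 in either direction.

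Car13 had the most negative log2 difference among the 10 genes. It encodes a cytosolic isoform found in several tissues, and its gene lies beside those of Car1, Car3 and Car2. Its signals (1421307_at) were 5.11, 4.50, 5.04, 4.80 and 4.16 in Lov A19, A48, A50, A55 and AB10, against 5.30, 7.17, 5.23, 6.51 and 4.94 in Vhcl A45, A49, A54, A59 and AB11. All Lov-treated tumors lay below the Vhcl median of 5.30, and the high Vhcl mean rested on A49 and A59. Car13 averaged 4.72 ± 0.39 with Lov and 5.83 ± 0.96 with Vhcl (SD, n = 5 each). The log2 difference was -1.11 ± 0.39 (SE, 95% interval -1.96 to -0.25), or 2.16-fold lower (limma p = 0.0157, adjusted p = 0.928, exact permutation p = 0.0238). A 2-fold lower signal with an unadjusted p under 0.02 was found for 0.264% of all genes. The study had listed Car13 from these same tumors, so its direction here is not independent evidence.

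With 1 tumor left out at a time the Car13 log2 difference ran between -1.33 (without Vhcl AB11) and -0.77 (without Vhcl A49), with limma p-values between 0.00536 and 0.0428. Without Lov A55, Vhcl A54 and Vhcl A59 the limma p was 0.0534. The second probe set (1421308_at) followed the same tumors, at 3.89, 3.43, 4.07, 3.66 and 3.54 with Lov, against 3.84, 5.48, 4.00, 5.13 and 3.85 with Vhcl. Its log2 difference was -0.74 ± 0.31 (SE, limma p = 0.0368, exact permutation p = 0.0794). The third probe set (1439620_at) stayed between 2.37 and 2.69 with Lov and between 2.44 and 2.87 with Vhcl, within the range of the Y-linked transcripts or below it.

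The tumor-to-tumor pattern of Car13 was set against all genes whose mean signal was at or above the median (11527 genes), as the Pearson r over the 10 tumors after the group means had been removed. The 5 most similar genes were Slc16a1 (r = 0.973), Ptprg (r = 0.973), Nanp (r = 0.963), Bspry (r = 0.959) and Slc43a3 (r = 0.950). Chosen as the highest of so many, such values are a description and carry no test. All 5 genes had their 2 highest signals in Vhcl A49 and Vhcl A59, as Car13 had. Slc16a1, the lactate and proton cotransporter MCT1, was at 5.77, 5.16, 5.69, 5.14 and 4.85 with Lov, against 6.17, 8.0, 6.45, 7.68 and 5.77 with Vhcl. It was 2.81-fold lower with Lov (log2 difference -1.49 ± 0.40, SE, limma p = 0.00284, adjusted p = 0.919, exact permutation p = 0.0159). Ltf, lactoferrin, which is made by neutrophils and by mammary epithelium, also peaked in Vhcl A49 (11.09) and A59 (11.81), where the other Vhcl-treated tumors lay between 6.03 and 7.91 and the Lov-treated tumors between 5.33 and 7.63. Over 7 neutrophil markers, 2 were lower at an unadjusted p under 0.05 (Ltf and S100a9) and 0 were higher, against 2.75% and 3.5% of all genes. The list means lay between 4.07 and 4.68 with Lov and between 4.26 and 5.37 with Vhcl. Without Ltf, the means of the other 6 markers lay between 3.85 and 4.18 with Lov and between 3.97 and 4.36 with Vhcl. They were highest in Vhcl A54 (4.355), where Car13 was not high, followed by Vhcl A59 (4.295) and A49 (4.265), where it was. These are low signals, for which the Y-linked transcripts at 2.62 to 3.56 give a scale. A neutrophil share in the Car13 signal was not tested.

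**Figure D3:**
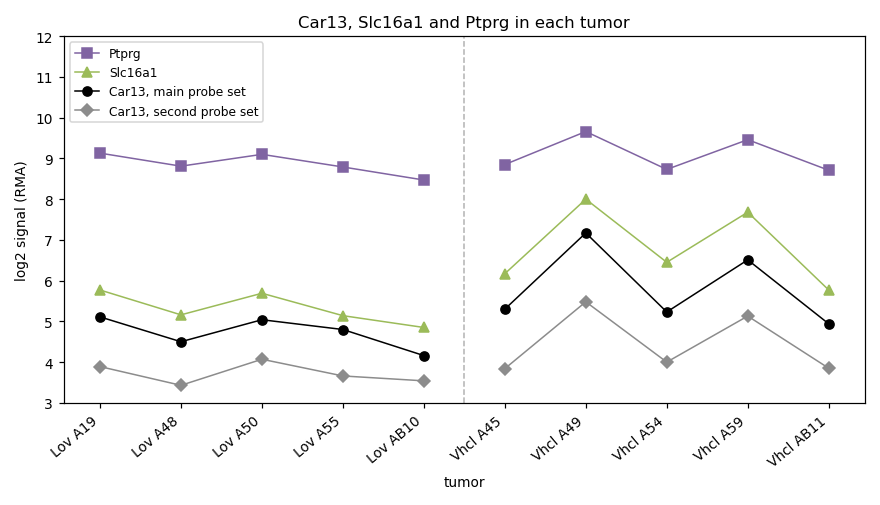
Log2 signal (y axis) of Car13 (main and second probe set), Slc16a1 and Ptprg in each tumor (x axis), Lov-treated tumors left of the dashed line and Vhcl-treated tumors right of it. Lines join tumors of a group only to guide the eye. All 4 traces are highest in Vhcl A49 and A59.

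Car2 encodes the abundant fast cytosolic isoform of red cells, osteoclasts and many epithelia. Its signals (1448752_at) were 9.31, 10.47, 10.45, 10.70 and 10.57 in Lov A19, A48, A50, A55 and AB10, against 9.22, 10.88, 9.68, 10.40 and 10.06 in Vhcl A45, A49, A54, A59 and AB11. Lov A19 stood apart from the other Lov-treated tumors, which lay within 10.45 to 10.70. The log2 difference was 0.25 ± 0.32 (SE, 95% interval -0.46 to 0.96, limma p = 0.452, exact permutation p = 0.516), and it ran from 0.045 without Vhcl A45 to 0.50 without Lov A19. The gene with the second highest likeness to Car2 was the milk protein gene Csn1s2b (r = 0.916 with group means removed, 10 tumors), after Kat7 (r = 0.918) and before Rimbp2, Ykt6 and Rap1gds1 (r = 0.904). Csn1s2b read 5.97, 7.27, 7.56, 7.80 and 8.42 with Lov, against 4.41, 10.28, 6.38, 8.63 and 6.94 with Vhcl. Of 6 erythroid and 8 osteoclast markers, 0 differed at an unadjusted p under 0.05. Within each tumor, Car13 minus Car2 averaged -5.58 ± 0.85 with Lov and -4.22 ± 0.57 with Vhcl (SD, n = 5 each), a difference of -1.36 (exact permutation p = 0.0238, 0.0714 after adjustment over the 3 contrasts).

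Car3, the cytosolic isoform abundant in adipocytes and slow skeletal muscle, had the widest range of the 10 genes. Its signals (1449434_at) were 7.81, 7.03, 3.21, 9.94 and 7.38 in Lov A19, A48, A50, A55 and AB10, against 7.62, 4.89, 9.58, 10.28 and 7.34 in Vhcl A45, A49, A54, A59 and AB11. The highest tumors were Vhcl A59, Lov A55 and Vhcl A54, and the lowest was Lov A50. The log2 difference of -0.87 ± 1.20 (SE) had a 95% interval of -3.49 to 1.76 (exact permutation p = 0.571), which included changes of several-fold in either direction. The probe set 1460256_at was again highest in Lov A55 (7.03), Vhcl A59 (6.73) and Vhcl A54 (6.69), and 2 further probe sets stayed at or below 4.36. Car13 minus Car3 within a tumor differed by -0.24 between the groups (exact permutation p = 0.849).

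The tumors with the most Car3 were also those with the highest average of skeletal muscle markers. The average of 12 skeletal muscle markers was 5.24, 4.81, 4.72, 8.22 and 4.99 in Lov A19, A48, A50, A55 and AB10, against 4.92, 4.64, 8.49, 8.41 and 6.11 in Vhcl A45, A49, A54, A59 and AB11. Acta1, skeletal muscle actin, was at 10.26 in Lov A55, 10.44 in Vhcl A54 and 10.57 in Vhcl A59, against 4.45 to 6.13 in the other Lov-treated tumors and 4.21 to 7.08 in the other Vhcl-treated tumors. Mb, of the same list, read 8.54 in Vhcl A54 but did not set the other tumors apart. It was at 7.5 in Lov A55 and 7.19 in Vhcl A59, against 7.43 in Lov A50. All 12 markers had negative differences (median -0.87) and 0 of 12 passed an unadjusted p under 0.05. The adipocyte hormone gene Adipoq was at 4.90, 4.51, 3.70, 5.83 and 5.20 with Lov, against 5.17, 3.79, 5.69, 6.14 and 4.57 with Vhcl. Adipoq was highest in Vhcl A59, Lov A55 and Vhcl A54 and lowest in Lov A50 and Vhcl A49, as was Car3. Fabp4 was likewise highest in Vhcl A59 (8.51) but read 7.32 in Lov A55. Fabp4 and Lpl were also lowest in Lov A50 (6.1 and 7.34) but read 7.94 and 8.41 in Vhcl A49. Retn was lowest in Vhcl A49 (4.56), whereas Lipe was highest there (5.96). Of 10 adipocyte markers measured, Fabp4 was lower at an unadjusted p under 0.05 (1.81-fold, exact permutation p = 0.0952) and 0 were higher, against 2.75% and 3.5% of all genes. The list means were 4.61 to 5.13 with Lov and 4.96 to 5.35 with Vhcl. Without the 3 tumors of high muscle signal the Car3 log2 difference was -0.26.

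Car6, the secreted isoform of saliva and milk, had signals (1421001_a_at) of 12.67, 11.85, 11.78, 10.74 and 11.23 in Lov A19, A48, A50, A55 and AB10, against 11.22, 11.57, 11.48, 10.64 and 13.18 in Vhcl A45, A49, A54, A59 and AB11. Vhcl AB11 was the highest tumor and Vhcl A59 the lowest. Car6 averaged 11.65 ± 0.72 with Lov and 11.62 ± 0.95 with Vhcl (SD, n = 5 each), a log2 difference of 0.04 ± 0.45 (SE, 95% interval -0.94 to 1.02, exact permutation p = 0.944). It was 0.43 without Vhcl AB11 and -0.22 without Lov A19.

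The mean of 10 salivary gland markers was 7.14, 6.18, 5.90, 5.98 and 5.89 in the Lov-treated tumors in the same order, against 6.90, 6.54, 6.29, 7.90 and 9.93 in the Vhcl-treated tumors. Amy1, the salivary amylase gene, read 13.34 in Vhcl AB11 and 6.90 in Vhcl A59, against 2.98 to 4.69 in the Lov-treated tumors and 3.22 to 3.64 in the other Vhcl-treated tumors. Vhcl AB11 was thus highest for Car6 and for the marker mean, whereas Vhcl A59 was second highest for that mean and lowest for Car6. Only Amy1, Smr3a, Bpifa2 and Dcpp1 among the markers were highest in Vhcl AB11. The others peaked elsewhere, such as Prol1 in Vhcl A49 (9.51), Bhlha15 and Cldn10 in Vhcl A45 (10.83 and 10.47) and Aqp5 in Lov A50 (12.97). Of the 10 markers, Dcpp1 and Prol1 were lower with Lov at an unadjusted p under 0.05 and 0 were higher, against 2.75% and 3.5% of all genes. Without Vhcl A59 and AB11 the Car6 log2 difference was 0.23. The Car6 signal was 10.64 or higher in every tumor, also in those where Amy1 was within the range of the Y-linked transcripts.

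**Figure D4:**
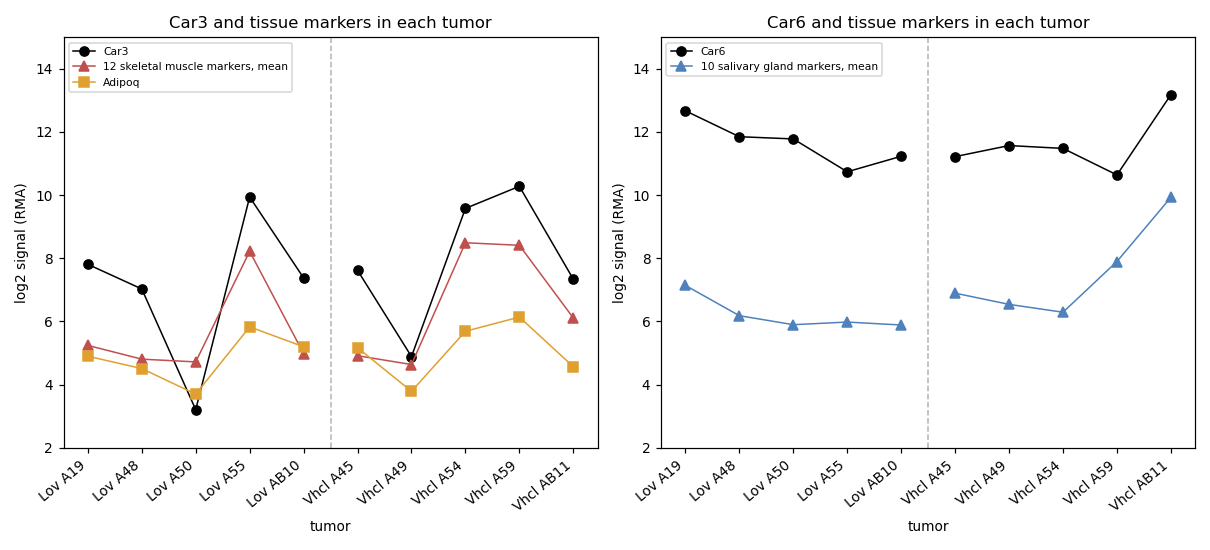
Log2 signal (y axis) in each tumor (x axis) of Car3 beside the mean of 12 skeletal muscle markers and Adipoq (left panel), and of Car6 beside the mean of 10 salivary gland markers (right panel). Lov-treated tumors stand left of the dashed line and Vhcl-treated tumors right of it. Car3, the muscle marker mean and Adipoq are highest in Lov A55, Vhcl A54 and Vhcl A59. Car6 and the salivary marker mean are highest in Vhcl AB11.

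Car8, the acatalytic isoform, which binds the inositol trisphosphate receptor, had a tight range with Lov and a broad one with Vhcl. Its signals (1427482_a_at) were 8.96, 9.14, 9.42, 9.03 and 8.82 in Lov A19, A48, A50, A55 and AB10, against 6.61, 9.51, 9.12, 7.53 and 8.92 in Vhcl A45, A49, A54, A59 and AB11. In the Vhcl group, 3 tumors tumors lay among the Lov-treated ones or just above, and A45 and A59 lay below. The SD was 0.23 with Lov and 1.22 with Vhcl (n = 5 each), which was not tested. The log2 difference was 0.74 ± 0.47 (SE, 95% interval -0.28 to 1.76, limma p = 0.141, exact permutation p = 0.325), and it was 1.03 (limma p = 0.0399) without Vhcl A49 and 0.30 without Vhcl A45. Both other Car8 probe sets stayed at or below 4.40, with differences of 0.14 and 0.02. Trim14, a gene of antiviral signaling, was the gene most like Car8 (r = 0.979 with group means removed, 10 tumors), with 9.09, 9.65, 9.72, 9.25 and 9.15 with Lov, against 7.82, 9.84, 9.46, 8.28 and 9.35 with Vhcl. Fbxo6, Hint2, Ntn1 and Cd1d1 followed, with r between 0.953 and 0.972.

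Car5b, one of the mitochondrial isoforms, differed little between the treatments. Its signals (1447928_at) were 6.64, 6.90, 6.72, 6.34 and 6.0 in Lov A19, A48, A50, A55 and AB10, against 6.58, 7.23, 6.46, 5.41 and 6.75 in Vhcl A45, A49, A54, A59 and AB11. Vhcl A59 was the lowest and Vhcl A49 the highest. The log2 difference was 0.03 ± 0.29 (SE, 95% interval -0.60 to 0.67, exact permutation p = 0.937), and that of the second probe set (1419705_at) was 0.09. The genes most like Car5b were Ccndbp1 (r = 0.976), Pdgfc, Zfp672, Glmp and Dtd1 (r = 0.966), again over the 10 tumors with group means removed. Those most like Car6 were Tifa (r = 0.894), Dhdds, Icam2, Otub2 and Smyd3 (r = 0.845), and those most like Car3 were Mib1 (r = 0.929), Golga4, Celf1, Larp4b and F13a1 (r = 0.890).

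The other 8 genes of the family had no member at an unadjusted p under 0.05 in either direction, with log2 differences between -0.22 and 0.10. They comprised the cytosolic Car1 and Car7, the mitochondrial Car5a, the membrane-anchored Car15, the acatalytic Car10 and Car11, and the receptor phosphatases Ptprg and Ptprz1, which carry a carbonic anhydrase-like domain outside the cell. Ptprg, named above beside Car13, read 9.13, 8.81, 9.10, 8.79 and 8.47 with Lov, against 8.85, 9.66, 8.73, 9.46 and 8.71 with Vhcl (log2 difference -0.22 ± 0.21, SE, exact permutation p = 0.405). Ptprz1 differed by -0.19 (exact permutation p = 0.127). Car7 was read by 3 probe sets, with differences of -0.01, 0.24 and 0.13.

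Transporters that move bicarbonate, protons and lactate across membranes work together with the carbonic anhydrases. Of 14 bicarbonate transporters measured, 0 were lower and 0 were higher with Lov at an unadjusted p under 0.05 (median log2 difference -0.04). The lowest limma p among them was that of the chloride-bicarbonate exchanger Slc4a1, with a log2 difference of -0.22 (exact permutation p = 0.0794). Of 14 proton and lactate exporters, Slc16a1 alone was lower and 0 were higher. The lactate exporter Slc16a3 (MCT4), known as a HIF target, differed by -0.34 (exact permutation p = 0.310), and Bsg, the chaperone of both transporters, by -0.42 (exact permutation p = 0.262). Of 19 subunits of the vacuolar proton pump, Atp6v1g1 was higher at 11.19, 11.17, 11.22, 11.27 and 11.32 with Lov, against 10.26, 11.11, 11.17, 10.92 and 10.96 with Vhcl (exact permutation p = 0.0159), and 0 were lower. Atp6v1b1, a subunit of acid-secreting epithelial cells, had a log2 difference of -0.81 (exact permutation p = 0.0794).

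Markers of the mammary luminal epithelium were present in every tumor. Epcam lay between 12.11 and 12.61 with Lov and between 12.18 and 12.57 with Vhcl, and 0 of 10 luminal markers differed at an unadjusted p under 0.05. Among 9 macrophage markers, Csf1r was higher with Lov (1.34-fold, limma adjusted p = 0.928, exact permutation p = 0.0397) and 0 were lower. By the same criterion 2.75% of all genes were lower and 3.5% higher. The correlation between arrays over all probe sets was 0.981 to 0.990 within the Lov group, 0.972 to 0.980 within the Vhcl group and 0.969 to 0.987 between the groups.

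The dependence of each log2 difference on single tumors was examined by leaving out each tumor in turn. Car13, Car9 and Car12 kept a negative difference and Car2 and Car8 a positive one in all 10 such fits. Car3, Car4, Car5b, Car6 and Car14 changed sign in at least 1 fit. For Car3 the range ran from -1.63 without Vhcl A49 to 0.10 without Lov A50.

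**Figure D5:**
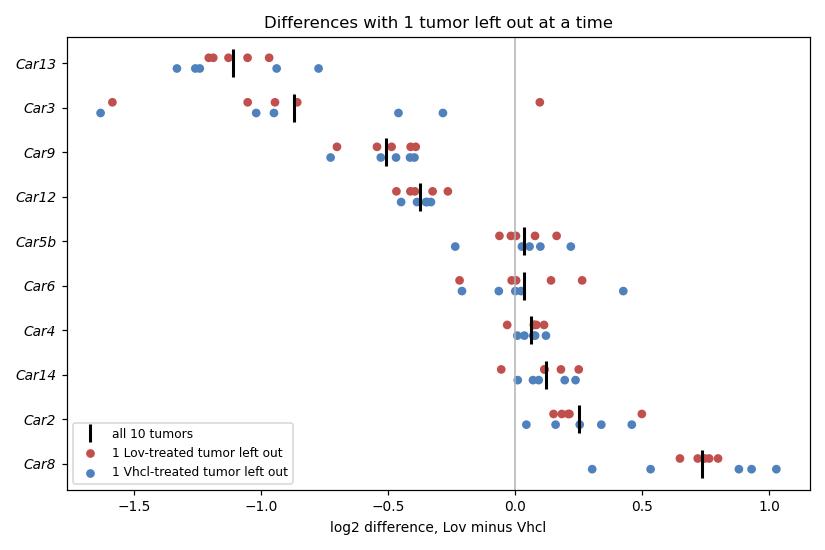
Log2 difference (Lov minus Vhcl, x axis) of the main probe set of each gene (y axis) with all 10 tumors (black bar) and with 1 tumor left out at a time (points, red for a Lov-treated and blue for a Vhcl-treated tumor). The points of Car13, Car9 and Car12 lie below 0 and those of Car2 and Car8 above it, whereas those of the other 5 genes lie on both sides.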

How the data were processed

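RNA of 10 whole mammary tumors (5 Lov, 5 Vhcl) had been hybridized to Affymetrix whole-genome mouse arrays. The authors summarized and normalized the raw intensities by RMA with the affy package, per the submitters' processing notes, and deposited log2 signals with 2 decimals. RMA normalizes between arrays, which would hide a shift shared by all genes, and compresses differences of dim probe sets. Detection calls and raw intensities were not analysed here, and precision is limited by the number of arrays.

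After removal of the 64 array controls, 45037 probe sets were fitted with limma 3.58.1 (R 4.3.3, moderated variance, 2-sided, Benjamini-Hochberg). Of these, 34945 carried 1 gene symbol, 932 several and 9160 none. Exact permutation tests (Python 3.11.15, 2-sided) used all 252 assignments of tumors, with a smallest possible p of 0.00794. The procedure was tested on simulated data. Named were all genes of the family, up to 4 genes of lowest p of each list with defining cell markers and, for family genes ranging over at least 1.5 log2 units, the 5 genes of highest r. Of 180 genes in the lists, 170 matched a probe set. The members and lists were chosen with earlier results of these data known. Alternatives covered priors, weights, normalization, the ID prefix, probe sets, filters and tumors left out.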

Additional observations from a re-analysis of the deposited data

Results flagged for a closer look

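Examined were the main probe sets of the 10 genes and of the 8 other family genes, and the 3 within-tumor contrasts. Of the resulting 42 groups of 5 tumors, 2 had 1 tumor set apart from the rest by Dixon's criterion. Chance alone meets this criterion in about 1 in 20 groups. Car2 read 9.31 in Lov A19, where the nearest Lov-treated tumor was at 10.45, a gap of 0.820 of the range of the group. Car4 read 4.46 in Lov A48, where the nearest was at 4.04, a gap of 0.724 of the range. Without these tumors the log2 difference was 0.50 for Car2 and -0.03 for Car4, against 0.25 and 0.06 with all tumors. That of Car2 was 0.045 without Vhcl A45.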

How the results depend on the processing

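Of 219 values of the 10 genes under the alternatives, 189 kept their direction and their side of an unadjusted p of 0.05, 11 lost and 4 gained the threshold, and 15 changed sign. The lowest adjusted p was 0.352. With all tumors, 2 of the 10 genes were lower with Lov at an unadjusted p under 0.05. This count was 1 without moderation of the variance, 1 with a gene's probe sets averaged, 1 without Vhcl A59 and AB11 and 0 without Lov A55, Vhcl A54 and Vhcl A59. Both of these sets of tumors were chosen after seeing the data. With single tumors left out, between 1 and 3 genes were lower and between 0 and 1 higher (Car8, without Vhcl A49).

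With array weights Car6 was -0.12 and Car14 -0.037. Without Lov A55, Vhcl A54 and Vhcl A59, Car5b was -0.29, Car6 -0.11 and Car9 minus Car12 0.0725, and without Vhcl A59 and AB11, Car5b was -0.24 and Car9 minus Car12 0.0467. With single tumors left out the ranges were 0.045 to 0.50 for Car2, -1.63 to 0.10 for Car3, -0.0305 to 0.122 for Car4, -0.24 to 0.22 for Car5b, -0.22 to 0.43 for Car6, -0.054 to 0.251 for Car14, -0.375 to 0.056 for Car9 minus Car12, -1.70 to -1.15 for Car13 minus Car2 and -1.29 to 0.86 for Car13 minus Car3. Car13 minus Car2 was -0.90 with probe sets averaged (exact permutation p = 0.0556), -1.25 without the 3 tumors (p = 0.114) and -1.55 without the pair (p = 0.0536). The cause was not tested. No value could be had for Car4 among probe sets above the median signal. No paired analysis was possible because the labels hold no replicate numbers, and numbers given here in the order of deposit tie no tumors of the groups together. Signals near those of the Y-linked transcripts limit what a small difference can show.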
